A study of Mus musculus with 30 samples.

Results

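Gene expression was compared between uteri of estrogen receptor alpha knockout (KO) mice treated with insulin-like growth factor 1 (IGF1) for 24 h and KO uteri given vehicle. The comparison used 6 of the 30 arrays of the study, 3 in each group, and the arrays were chosen by their sample labels alone. All mice were females before puberty, 21 days old, and both groups carried the Ex3aERKO deletion, which removes exon 3 of Esr1, the gene of estrogen receptor alpha. The IGF1 group received 50 ug of IGF1 in PBS into the peritoneum at 0, 8 and 16 h and was sampled 24 h after the first dose. The vehicle group received 100 ul of saline once and was sampled 24 h later. Agent, solvent and number of injections therefore cannot be told apart. Further groups of 3 arrays each serve only for comparison: wild-type (WT) mice of the same age given the same 3 doses of IGF1, WT mice given saline, KO mice given 50 ug of IGF1 once and sampled at 2 h, and KO mice given 250 ng of estradiol (E2) in 100 ul of saline once and sampled at 24 h. The labels do not say whether replicates are separate animals, so p-values reflect no more than the spread between arrays, which may be technical. That spread was estimated from all 30 arrays, not from the 6 compared alone. The groups not named above were WT mice given E2 once (2 h and 24 h) or IGF1 once (2 h), and KO mice given E2 once (2 h). They entered only this estimate. The question was which uterine genes differ between IGF1 and vehicle when intact estrogen receptor alpha is missing.

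IGF1 binds a receptor tyrosine kinase, the IGF1 receptor. This receptor works through IRS adaptor proteins on the kinases PI3K and AKT and through RAS on the MAP kinases (MAPK). Active AKT keeps FoxO transcription factors out of the nucleus, so genes that FoxO factors turn on are less transcribed while the signal lasts, and secreted IGF-binding proteins hold the ligand or release it. In the rodent uterus E2 acts through estrogen receptor alpha in stromal cells to raise IGF1 production, and IGF1 is known there as a driver of epithelial cell division.

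Levels are log2 values as the authors deposited them, in which a difference of 1 is a 2-fold change, and levels of different genes are not set against each other. Changes are log2 differences, IGF1 minus vehicle, ± standard error (SE) with n = 3 arrays per group, and a gene was called at adjusted p < 0.05 in a limma fit to 30142 genes. The number of arrays limits the precision. The background floor of an array is the level that 95% of 1083 olfactory receptor genes did not exceed, 5.84 to 5.96 on the KO IGF1 arrays and 5.98 to 6.23 on the KO vehicle arrays. Where all 3 arrays of the dimmer group were at or under the floor, a fold is a bound, written "at least".

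Some arrays stood apart, by array measures or by genes picked after their values were seen. KO vehicle replicate 1 had the highest floor of the 6 arrays compared (6.23). Array weights, which are lower for arrays that vary more, gave it 0.39, against 0.998 to 1.53 for the others of the 6. For WT vehicle replicate 1 the floor was 6.48 and the weight 0.17. On KO IGF1 replicate 2, the lactoferrin gene Ltf was at 13.38, against 7.24 and 7.45 on the other IGF1 arrays and 8.78 to 9.65 on the vehicle arrays. The keratin gene Krt15 was at 11.23 on that array, against 6.03 and 6.30 on the other IGF1 arrays and 6.24 to 6.72 on the vehicle arrays. KO vehicle replicate 3 held the highest level of the fat cell hormone gene Adipoq, 11.54, where the IGF1 arrays had 8.61 to 10.39 and the other vehicle arrays 8.22 and 9.51. It also had Upk3b, a gene of the mesothelium, at 10.46, against 7.33 to 7.65 on the IGF1 arrays and 7.18 and 8.16 on the other vehicle arrays. Among the WT arrays, Xist, the RNA of the inactive X chromosome of females, was at 10.16 on WT vehicle replicate 1 and at 17.01 or more on the other 29 arrays, which goes against the label of that array as female. Counts, list medians and gene changes from WT are therefore also given without it in the text.

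Esr1, the targeted gene, was at 10.14, 9.95 and 10.28 on the KO IGF1 arrays and 10.41, 10.29 and 10.08 on the KO vehicle arrays. The 2 KO groups overlapped, and the change was -0.14 ± 0.19 (adjusted p = 0.738). In vehicle uteri Esr1 was lower in KO than in WT by a log2 change of -2.04 ± 0.19 (adjusted p = 2.17e-06, where 2.92% of genes were called), or -2.32 without WT vehicle replicate 1, with WT levels of 11.73, 12.43 and 12.73. Whether the probe set covers the deleted exon was not tested, which limits what Esr1 says about the genotype. The progesterone receptor gene Pgr, which E2 induces in the uterus, was at 14.23, 13.66 and 14.26 with IGF1 and 13.88, 14.06 and 13.45 with vehicle, a change of 0.25 ± 0.33 (adjusted p = 0.718). Its sign turned under quantile normalization (-0.23). Igf1 itself changed by 0.31 ± 0.28 (adjusted p = 0.558), and Esr2 and the E2-induced gene Greb1 lay at or under the floor on all 6 arrays.

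The tissue label was checked against marker genes. Of 13 markers of uterine epithelium, 12 lay above the floor on all IGF1 arrays and 12 on all vehicle arrays. The same held for 11 and 10 of 11 stroma markers and for 12 and 12 of 12 smooth muscle markers, while all 6 eosinophil markers were at or under the floor on all 6 arrays. In RNA from whole uterus, fewer cells of a type and less RNA per cell cannot be told apart. Of the epithelial markers 3 rose and none fell, Cldn3 by 1.51 ± 0.35, Krt8 by 1.31 ± 0.39 and Elf3 by 1.16 ± 0.38. Only 1 of them was called without IGF1 replicate 1, without IGF1 replicate 3 and under quantile normalization. Of the stroma markers 5 rose and 1, Dcn, fell (median 0.86), among the rises the intermediate filament gene Vim by 1.52 ± 0.30 and the patterning factor gene Hoxa11 by 1.39 ± 0.29. Smooth muscle had 1 riser of 12, the gamma actin gene Actg2 (1.99 ± 0.51), where 9.28% of all genes rose. Actg2 was at 14.53 on IGF1 replicate 2 and at 12.91 and 13.18 on the other IGF1 arrays, against 11.63, 10.85 and 12.16 with vehicle. Its call was lost without IGF1 replicate 2 (adjusted p = 0.0863) and without vehicle replicate 2 (adjusted p = 0.0758).

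KO uteri given IGF1 for 24 h differed from KO vehicle uteri in 4107 of the 30142 genes, 13.6% of those tested. Of these 2796 were higher (9.28% of genes tested) and 1311 lower (4.35%), and 1125 and 326 of them by at least 2-fold (3.73% and 1.08%). The median change of all genes was -0.04. Counts of list members called in KO are to be read beside the shares of 9.28% and 4.35%. Those shares include 11900 genes whose mean lay at or under the floor in every group. With these left out, 3174 of 18242 genes were higher and 1460 lower, so the shares are larger among brighter genes. Most lists hold mainly brighter genes, and list counts not far above 9.28% or 4.35% do not set a list apart. The share of calls that were higher was 68.1%, against 73.5% with arrays centred on their medians and 52.9% under quantile normalization, so the balance of rises and falls depends on the scaling. The IGF1 and vehicle arrays did not overlap for 9478 genes (31.4%), and 1435 genes (4.76%) were called, at least 2-fold changed and without overlap. The count of calls was 2544 without vehicle replicate 2 and 2644 without IGF1 replicate 3.

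Among the 12 largest rises were Igfbp5, Vcan and Lgals1. Igfbp5, an IGF-binding protein gene, was at 14.22, 14.90 and 14.30 with IGF1 and at 10.59, 9.76 and 11.41 with vehicle, a rise of 3.89 ± 0.55 (14.8-fold, adjusted p = 9.8e-05). Vcan, the gene of the matrix proteoglycan versican, was at 12.42, 11.54 and 12.22 with IGF1 and at 8.72, 8.48 and 8.43 with vehicle. Its rise of 3.52 ± 0.34 (11.4-fold, adjusted p = 2.49e-06) was large against the spread of either group. Lgals1, the gene of the sugar-binding protein galectin 1, was at 17.43, 18.01 and 18.15 with IGF1 and 13.36, 13.33 and 15.04 with vehicle, a rise of 3.95 ± 0.53 (15.5-fold, adjusted p = 7.92e-05). Lrp2, the gene of an endocytic receptor, rose by 3.01 ± 0.43, and Hdc, the gene of the enzyme that makes histamine, rose by 2.93 ± 0.47. Hdc was at 12.57, 11.47 and 13.19 with IGF1 and 8.36, 10.18 and 9.91 with vehicle. It was also the only 1 of 9 mast cell markers called, and 3 of the 9 lay at or under the floor on all 6 arrays. The mean of the mast cell list was 6.70, 6.84 and 6.92 with IGF1 and 6.31, 6.46 and 6.89 with vehicle, and its part in the rise of Hdc was not tested.

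S100a8, the gene of a calcium-binding protein abundant in neutrophils, had the largest fitted rise and the largest spread. It was at 10.31, 15.003 and 10.82 with IGF1 and at 5.46, 5.03 and 7.10 with vehicle, and 2 of the 3 vehicle arrays lay under the floor. The groups did not overlap, as the rule for naming the largest rises required, and the change was 6.18 ± 1.63 (adjusted p = 0.012). The call was lost without IGF1 replicate 2 (4.70, adjusted p = 0.0939) and without vehicle replicate 2 (5.76, adjusted p = 0.0567). Its partner gene S100a9, at 9.07, 15.02 and 10.16 with IGF1 and 7.54, 7.13 and 8.43 with vehicle, was not called (adjusted p = 0.158). The other 9 neutrophil markers gave no call, 3 of the 10 lay at or under the floor on all 6 arrays, and the list mean was 6.17, 7.43 and 6.30 with IGF1 and 5.58, 5.46 and 5.85 with vehicle. The part of neutrophils in these values was not tested.

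Further rises among the 12 largest were in the protease inhibitor genes Serpina3n (3.54 ± 0.90) and Serpina1e (2.77 ± 0.62) and the LIM domain gene Crip1 (2.88 ± 0.72). Mitochondrial genes made up the others, Atp5mpl, the gene of a small protein bound to ATP synthase (2.89 ± 0.44), Slc25a5, the gene of an ADP/ATP carrier (2.79 ± 0.51), and the ribosomal protein pseudogene Mrps36-ps1 (2.87 ± 0.52). Serpina1e lost its call with the fit limited to the groups compared (adjusted p = 0.0539). Serpina3n lost its call without vehicle replicate 2 (adjusted p = 0.0535) and without IGF1 replicate 3 (adjusted p = 0.0503). Crip1 lost it without vehicle replicate 1 (adjusted p = 0.0513) and without IGF1 replicate 3 (adjusted p = 0.0572). Serpina genes, pseudogenes and their parent genes share sequence, so these changes are not assigned to 1 gene with certainty.

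**Figure D1:**
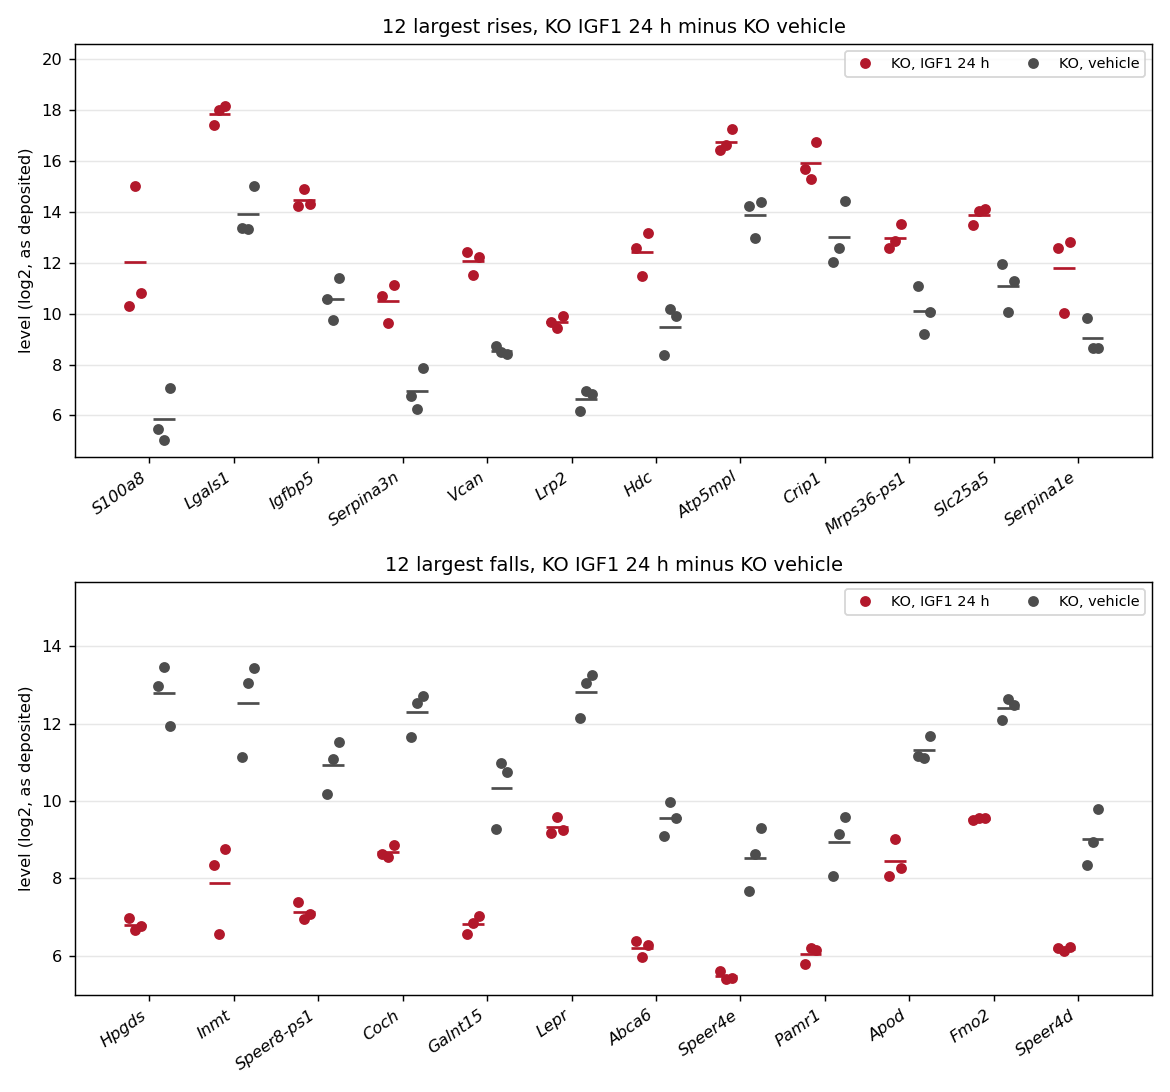
Level of the 12 genes with the largest rises (upper panel) and the 12 with the largest falls (lower panel) on each array, as deposited log2 values. Red points are the 3 KO IGF1 24 h arrays and grey points the 3 KO vehicle arrays, with a bar at each group's mean. The groups do not overlap for any of these genes, as the rule for naming them required, and S100a8 has its highest value, 15.003, on IGF1 replicate 2.

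None of the 12 largest falls lost its call when any of the 6 arrays was left out, against 3 of the 12 largest rises. Hpgds, the gene of a prostaglandin D synthase, was at 6.97, 6.65 and 6.78 with IGF1 and at 12.96, 13.46 and 11.93 with vehicle. Its change of -5.98 ± 0.43 (63.2-fold lower, adjusted p = 2.12e-08) was the largest fall. Inmt, the gene of a methyltransferase of small amines, was at 8.34, 6.56 and 8.77 with IGF1 and 11.13, 13.06 and 13.44 with vehicle (-4.66 ± 0.96). Lepr, the leptin receptor gene, was at 9.18, 9.58 and 9.26 with IGF1 and 12.15, 13.05 and 13.26 with vehicle, a change of -3.48 ± 0.46 (adjusted p = 7.27e-05). These falls left each IGF1 array below each vehicle array by over 2-fold.

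Coch, the gene of the secreted protein cochlin, fell by 3.62 ± 0.46 and Galnt15, the gene of an enzyme that starts O-linked sugar chains, fell by 3.52 ± 0.64. The transporter gene Abca6 (-3.34 ± 0.46), Pamr1 (-2.88 ± 0.53), the lipocalin gene Apod (-2.88 ± 0.74) and Fmo2, the gene of a flavin monooxygenase (-2.86 ± 0.54), also fell. Fmo2 was at 9.51, 9.57 and 9.55 with IGF1 and at 12.10, 12.63 and 12.47 with vehicle, so both groups were tight. The remaining falls were in 3 members of the Speer family, Speer8-ps1 (-3.80 ± 0.60), Speer4e (at least 6.12-fold) and Speer4d (-2.84 ± 0.40). Speer genes are near-identical copies, so their values may come from shared probes.

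In the IGF pathway Igf1r, the receptor gene, was at 10.47, 10.51 and 10.75 with IGF1 and at 11.93, 12.55 and 12.21 with vehicle, a fall of -1.65 ± 0.33 (adjusted p = 0.00154). Irs2, the gene of an adaptor of the receptor, was at 7.91, 7.70 and 8.99 with IGF1 and 9.98, 9.89 and 10.71 with vehicle (-1.99 ± 0.51, adjusted p = 0.01). Its call was lost without vehicle replicate 3 (adjusted p = 0.0507) and without IGF1 replicate 2 (adjusted p = 0.0573). Both genes were lower on every IGF1 array than on any vehicle array, where 31.4% of all genes had no overlap between the groups.

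Among binding proteins, Igfbp4 was at 13.41, 13.39 and 13.57 with IGF1 and at 10.38, 10.78 and 11.31 with vehicle, a rise of 2.63 ± 0.31 (adjusted p = 2.66e-05), beside the rise of Igfbp5. Igfbp7 rose by 0.84, while Igfbp3 (-0.68), Igfbp6 (-1.13) and Igfbp2 (its vehicle arrays at or under the floor) were not called. Downstream, Akt1, a kinase gene (0.68), and Tsc2, the gene of a brake on the growth kinase mTOR (0.61), rose, and 2 inhibitors of the pathway fell, Pik3ip1 of PI3K (-1.17) and the receptor-binding adaptor Grb14 (-1.02). Of 25 measured genes of this IGF list 5 rose and 4 fell (median -0.20), where 9.28% of all genes rose and 4.35% fell. Without IGF1 replicate 3, 3 rose, and with array weights 8 fell.

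Of 25 FoxO target genes 6 fell and none rose, with a median of -0.49 against -0.04 for all genes, of which 4.35% fell and 9.28% rose. Txnip, the gene of a thioredoxin-binding protein that limits glucose uptake, was at 14.67, 14.56 and 14.78 with IGF1 and at 16.12, 16.85 and 16.70 with vehicle (-1.89 ± 0.44, adjusted p = 0.00476). Bcl2l11, the gene of the death-promoting protein BIM, named after its values were seen, was at 6.96, 7.08 and 7.12 with IGF1 and 8.14, 7.88 and 7.97 with vehicle (-0.95 ± 0.24, adjusted p = 0.00981). Pik3ip1, which this list shares with the IGF list, and the factor gene Foxo4 (-0.61) fell too. The groups did not overlap for Txnip or Bcl2l11, nor for 31.4% of all genes.

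Klhl24 (-2.01 ± 0.63) and the arrestin family gene Arrdc3 (-1.67 ± 0.50) fell as well, with calls that most left-out arrays removed. Klhl24 was lost without any of 5 arrays, vehicle replicates 2 and 3 and each IGF1 replicate (adjusted p 0.0816 to 0.105). Arrdc3 was lost without vehicle replicates 1 and 2 (adjusted p = 0.0572 and 0.105) and IGF1 replicates 2 and 3 (adjusted p = 0.122 and 0.0734). Fbxo32, a ubiquitin ligase gene of muscle wasting and a standard FoxO target, was at 10.55, 11.81 and 11.36 with IGF1 and 12.92, 13.22 and 13.88 with vehicle, and was not called (-2.10 ± 0.81, adjusted p = 0.0872). The count of fallen members was 3 without IGF1 replicate 2 and 10 under quantile normalization.

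The forkhead motif GTAAACA was searched on both strands of RefSeq promoters (GRCm38.p6, 300 bases around each gene start). It was found in 5 of the 21 FoxO target genes with a listed promoter (23.8%), against 4.05% of all 27025 genes with one. A gene counted if any of its promoters held the motif. Of the 4 members that fell and had a promoter, 2 held it. Those 2 are shown because both genes were lower on all IGF1 arrays, with the motif in capitals. Txnip lies on chromosome 3 (chr3:96557707-96558006, plus strand) and Bcl2l11 on chromosome 2 (chr2:128125788-128126087, plus strand, 1 of its 2 listed promoters).
Txnip: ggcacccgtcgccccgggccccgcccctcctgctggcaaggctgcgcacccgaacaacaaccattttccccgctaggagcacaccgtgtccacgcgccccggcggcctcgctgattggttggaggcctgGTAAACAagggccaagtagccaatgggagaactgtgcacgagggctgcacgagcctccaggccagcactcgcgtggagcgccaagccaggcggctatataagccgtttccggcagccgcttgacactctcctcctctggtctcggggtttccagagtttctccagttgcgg
Bcl2l11: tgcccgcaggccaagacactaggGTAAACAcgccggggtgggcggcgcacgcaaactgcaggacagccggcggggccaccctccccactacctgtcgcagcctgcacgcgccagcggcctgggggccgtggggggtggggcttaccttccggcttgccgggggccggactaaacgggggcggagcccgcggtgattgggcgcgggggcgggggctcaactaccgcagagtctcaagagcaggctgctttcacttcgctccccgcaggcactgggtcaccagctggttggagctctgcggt

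Immediate early genes, which growth factors turn on within minutes, and feedback inhibitors of MAPK signalling had no riser at 24 h. Of 32 such genes 4 fell and none rose (median -0.12), where 4.35% of all genes fell and 9.28% rose. Fosl2, the gene of an AP-1 factor, was at 7.08, 6.95 and 6.89 with IGF1 and 7.64, 8.80 and 8.08 with vehicle (-1.20 ± 0.26, adjusted p = 0.00312). Dusp1, the gene of a phosphatase that inactivates MAP kinases, was at 7.58, 7.59 and 7.77 with IGF1 and 8.32, 8.22 and 8.49 with vehicle (-0.69 ± 0.21, adjusted p = 0.0316). The MAPK inhibitor genes Spry1 (-0.49) and Spred2 (-0.68) were the other fallers, while Jun (-0.78, adjusted p = 0.0886) and Srf (0.68, adjusted p = 0.114) were not called. Leaving out any of the 6 arrays lost the call of Dusp1 (adjusted p 0.054 to 0.103). Without vehicle replicate 2, 2 of the 32 were lower, and under quantile normalization 7 were.

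Of 20 genes of protein folding in the endoplasmic reticulum 12 rose and none fell, with a median of 0.82, and 10 to 12 rose when any of the 6 arrays was left out. Calr, the gene of the calcium-binding chaperone calreticulin, was at 13.96, 13.999 and 13.92 with IGF1 and at 12.15, 11.76 and 12.09 with vehicle (1.961 ± 0.29, 3.89-fold, adjusted p = 0.000124). P4hb, the gene of a protein disulfide isomerase that is also a subunit of the collagen prolyl hydroxylase, was at 14.20, 14.38 and 14.71 with IGF1 and 12.14, 12.49 and 12.86 with vehicle (1.93 ± 0.26). The co-chaperone gene Dnajb11 (1.60 ± 0.30) and Sdf2l1 (1.495 ± 0.28) followed. The chaperone gene Hspa5 (BiP) rose by 1.19 ± 0.29 and Creld2 by 1.37 ± 0.30, both named after their values were seen.

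The ER stress element, CCAAT followed after 9 bases of any kind by CCACG, which the factors ATF6 and NF-Y are known to bind, was searched on both strands. It was found in 7 of 19 members with a promoter (36.8%) against 0.137% of all genes with one, and in 5 of the 11 risers with a promoter. The promoters of 3 of these risers are shown with the element in capitals. Where the capitals start with CGTGG the element lies on the opposite strand. Calr lies on chromosome 8 (chr8:84846882-84847181, minus strand), Hspa5 on chromosome 2 (chr2:34771840-34772139, plus strand) and Creld2 on chromosome 15 (chr15:88819396-88819695, plus strand).
Calr: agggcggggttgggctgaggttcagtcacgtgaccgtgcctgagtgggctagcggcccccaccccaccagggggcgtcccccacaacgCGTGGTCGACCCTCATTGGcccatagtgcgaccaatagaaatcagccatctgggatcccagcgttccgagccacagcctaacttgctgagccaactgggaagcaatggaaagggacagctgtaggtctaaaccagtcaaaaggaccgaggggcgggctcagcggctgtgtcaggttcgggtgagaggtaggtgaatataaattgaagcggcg
Hspa5: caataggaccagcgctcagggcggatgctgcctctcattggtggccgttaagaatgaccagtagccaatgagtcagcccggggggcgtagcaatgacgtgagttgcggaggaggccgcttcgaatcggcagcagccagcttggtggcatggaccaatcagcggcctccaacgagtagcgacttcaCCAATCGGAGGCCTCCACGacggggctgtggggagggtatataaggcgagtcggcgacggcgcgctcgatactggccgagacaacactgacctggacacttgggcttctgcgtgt
Creld2: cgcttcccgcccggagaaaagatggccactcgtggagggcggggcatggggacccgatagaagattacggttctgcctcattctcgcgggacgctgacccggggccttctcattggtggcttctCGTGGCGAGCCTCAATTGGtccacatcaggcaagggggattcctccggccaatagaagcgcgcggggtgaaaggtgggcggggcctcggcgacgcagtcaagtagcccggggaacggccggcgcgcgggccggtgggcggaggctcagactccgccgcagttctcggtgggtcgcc

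Other genes of protein synthesis rose in part. Of 17 cytosolic aminoacyl-tRNA synthetase genes, which charge tRNAs, 6 rose and none fell (median 0.69), and all 17 changes were positive. Kars, the lysine enzyme gene, was at 12.14, 11.97 and 12.30 with IGF1 and 10.02, 10.58 and 10.95 with vehicle (1.62 ± 0.28, adjusted p = 0.000381). The histidine enzyme gene Hars was at 9.82, 10.25 and 10.15 with IGF1 and 8.70, 8.73 and 9.15 with vehicle (1.21 ± 0.17). With the fit limited to the 2 groups compared, 10 of the 17 rose.

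Of 28 genes of ribosome biogenesis 8 rose and none fell (median 0.35), among them Fbl, the gene of the rRNA methyltransferase fibrillarin, by 1.19 ± 0.22 and Nhp2, a small nucleolar RNP gene, by 1.30 ± 0.26. Fbl was at 13.41, 13.76 and 13.27 with IGF1 and 12.06, 12.30 and 12.51 with vehicle. The RNA helicase gene Ddx21 (1.27 ± 0.42, adjusted p = 0.0449) lost its call without any of the 6 arrays (adjusted p 0.0686 to 0.135), and Bysl, at or under the floor on all vehicle arrays, was not called (at least 1.66-fold, adjusted p = 0.0557). The count was 5 without vehicle replicate 1, IGF1 replicate 2 or IGF1 replicate 3, and 4 without vehicle replicate 2.

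The respiratory chain had the largest share of risers of the 19 lists. Of 28 genes of its subunits and ATP synthase 23 rose and none fell, with a median of 0.97, and 19 to 23 rose when any of the 6 arrays was left out. Cycs, the gene of the electron carrier cytochrome c, was at 12.97, 12.999 and 12.81 with IGF1 and 11.34, 9.78 and 10.30 with vehicle (2.46 ± 0.58, adjusted p = 0.00517). Ndufa4 was at 16.79, 17.30 and 17.26 with IGF1 and 14.87, 14.40 and 15.53 with vehicle (2.19 ± 0.35), and the ATP synthase gene Atp5o at 12.49, 13.05 and 13.14 with IGF1 and 11.34, 10.18 and 10.995 with vehicle (2.06 ± 0.29, adjusted p = 9.97e-05). The complex IV gene Cox5a rose by 2.30 ± 0.45. The risers included subunits of each respiratory complex. No IGF1 array overlapped a vehicle array for these 4 genes, named for the largest changes of the list. The groups did not overlap for 31.4% of all genes. Many such genes have processed pseudogenes, with which probes may be shared.

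Glycolysis and glucose uptake had 7 risers and no faller among 16 genes (median 0.55). The kinase gene Pgk1 was at 12.25, 12.59 and 12.80 with IGF1 and 10.51, 10.33 and 11.15 with vehicle (1.88 ± 0.33). Pkm, the pyruvate kinase gene, rose by 1.29 ± 0.30, Gapdh by 1.10 ± 0.20 and Tpi1 by 1.19 ± 0.33, the last not without vehicle replicate 1 (adjusted p = 0.103) or IGF1 replicate 3 (adjusted p = 0.0752). Gapdh is often used as a steady control gene. The count was 4 without IGF1 replicate 3.

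Of 22 genes of cholesterol and fatty acid synthesis 7 rose and none fell (median 0.46), all of them in the cholesterol branch. Fdps, the gene of the farnesyl diphosphate synthase, was at 9.10, 8.58 and 9.50 with IGF1 and 7.85, 6.95 and 7.02 with vehicle (1.79 ± 0.36, adjusted p = 0.00166). Hmgcs1 (1.39 ± 0.44) and Idi1 (1.38 ± 0.43), enzymes of the mevalonate pathway, had adjusted p of 0.0382 and 0.0352. Both lost their calls without vehicle replicate 2, vehicle replicate 3, IGF1 replicate 1 or IGF1 replicate 3, and without any of these arrays the list had 2 risers. The desaturase gene Scd1 was at 11.97, 11.67 and 12.51 with IGF1 and 12.13, 12.42 and 16.14 with vehicle, and was not called (adjusted p = 0.634).

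**Figure D2:**
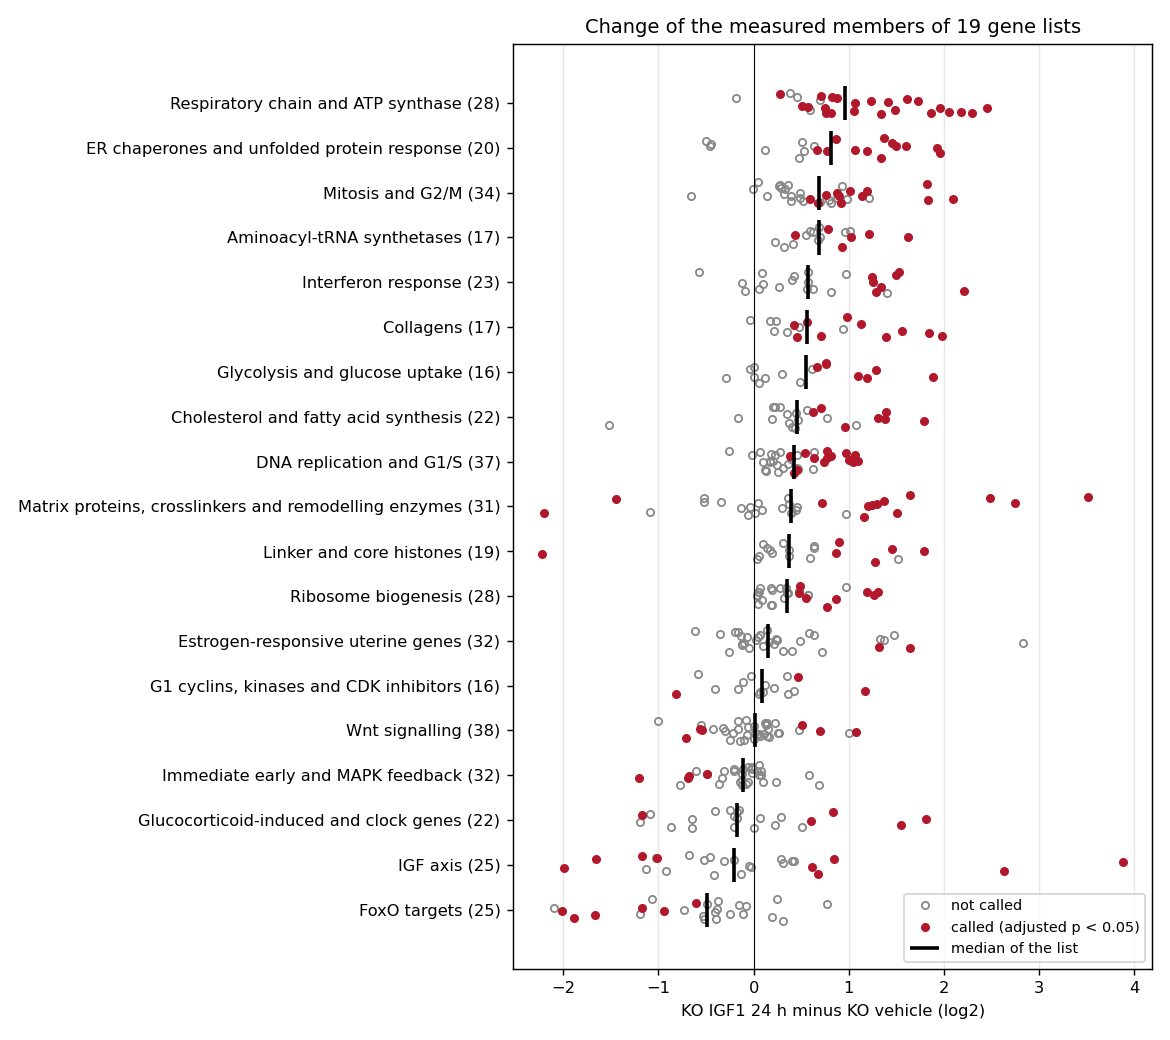
Log2 change, KO IGF1 24 h minus KO vehicle, of each measured member of 19 gene lists, with the number of members in brackets. Filled points were called at adjusted p < 0.05, open points were not, and the bar marks the median of the list. The respiratory chain list has the highest median (0.97) and the FoxO target list the lowest (-0.49).

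Of 37 genes of DNA replication 15 rose and none fell, with a median of 0.43, and 9 of the 37 lay at or under the floor on all 6 arrays. Mcm5, a subunit of the replicative helicase, was at 6.89, 7.31 and 7.24 with IGF1 and 6.15, 6.12 and 5.99 with vehicle (1.06 ± 0.15, adjusted p = 0.000101). Its levels on vehicle replicates 1 and 3 lay under the floor (6.23 and 6.05 on those arrays), which limits what the size of its change says. Mcm3 was at 7.82, 8.18 and 8.16 with IGF1 and 7.16, 6.91 and 6.97 with vehicle (1.04 ± 0.22, adjusted p = 0.002). Prim1, the DNA primase gene, was at 9.60, 9.70 and 9.42 with IGF1 and 8.51, 8.37 and 8.54 with vehicle (1.10 ± 0.21). Pcna, the gene of the sliding clamp, rose by 1.06 ± 0.27, a call lost without vehicle replicate 2 (adjusted p = 0.0876) and under quantile normalization (adjusted p = 0.116). The count of risers was 8 without vehicle replicate 2, 9 without vehicle replicate 3 and 7 without IGF1 replicate 2, and 1 of the 15, E2f1, lay at or under the floor in both groups.

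E2F sites were searched as TTTCCCGC, TTTGGCGC, TTTCGCGC and TTTGCCGC on both strands, where a site and the reverse of another may overlap. They were found in 13 of 31 members with a promoter (41.9%) against 2.6% of all genes with one, and in 3 of the 14 risers with a promoter. The helicase genes Mcm3 (chr1:20820263-20820562, minus strand, chromosome 1) and Mcm5 (chr8:75109259-75109558, plus strand, chromosome 8) are shown because both were higher on each IGF1 array than on any vehicle array and each holds 2 sites, in capitals. In Mcm5 the 2 sites overlap.
Mcm3: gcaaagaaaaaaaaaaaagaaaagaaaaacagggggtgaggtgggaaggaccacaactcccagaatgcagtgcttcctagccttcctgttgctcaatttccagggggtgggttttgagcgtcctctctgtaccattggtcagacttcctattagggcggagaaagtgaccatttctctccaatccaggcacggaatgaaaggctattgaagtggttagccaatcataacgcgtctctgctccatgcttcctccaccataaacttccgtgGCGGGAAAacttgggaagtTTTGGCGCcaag
Mcm5: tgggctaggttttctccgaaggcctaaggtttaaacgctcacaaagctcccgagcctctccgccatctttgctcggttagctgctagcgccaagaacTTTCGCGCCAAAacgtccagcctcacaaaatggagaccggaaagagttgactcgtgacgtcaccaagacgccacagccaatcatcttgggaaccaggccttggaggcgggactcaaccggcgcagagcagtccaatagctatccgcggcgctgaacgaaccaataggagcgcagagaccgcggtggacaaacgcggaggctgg

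The calls of mitosis genes rested on IGF1 replicate 2 and vehicle replicate 2. Mki67, a marker gene of cycling cells, was at 8.25, 10.69 and 8.38 with IGF1 and at 7.76, 6.37 and 6.90 with vehicle (2.10 ± 0.59, adjusted p = 0.0175). Top2a, a DNA topoisomerase gene, was at 8.53, 10.52 and 8.65 with IGF1 and 8.28, 6.66 and 7.30 with vehicle (1.82 ± 0.57, adjusted p = 0.0352). Ube2c, a gene of the degradation of mitotic cyclins, was at 8.28, 10.57 and 8.35 with IGF1 and 7.79, 6.70 and 7.22 with vehicle (1.83 ± 0.53). In each of these genes replicate 2 was more than 3-fold above the other IGF1 arrays, and those lay close to vehicle replicate 1.

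Of 34 mitosis genes 12 rose and none fell (median 0.69), and the mean of the list was 6.58, 7.74 and 6.61 with IGF1 and 6.61, 5.996 and 6.22 with vehicle. Without IGF1 replicate 2 none rose and 1 fell (6 rose at an unadjusted p under 0.05, limma, median 0.36). Without vehicle replicate 2 none rose (14 at an unadjusted p under 0.05), without vehicle replicate 3 there were 3, and with the fit limited to the 2 groups compared none. Mki67, Top2a and Ube2c each lost the call without IGF1 replicate 2 (adjusted p = 0.159, 0.237 and 0.195) and without vehicle replicate 2 (adjusted p = 0.098, 0.171 and 0.112). Top2a (adjusted p = 0.0843) and Ube2c (adjusted p = 0.0527) also lost it without vehicle replicate 3, and the cyclin gene Ccnb2 was not called (1.21, adjusted p = 0.073).

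The cell cycle homology region, TTTGAA, which marks promoters of genes expressed late in the cycle, was searched on both strands. It was found in 21 of 28 members with a promoter (75.0%) against 20.2% of all genes with one, and in 9 of the 10 risers with a promoter. The promoter of Top2a (chr11:99024140-99024439, minus strand, chromosome 11) is shown as a riser with 2 copies, in capitals, 1 of them on the opposite strand.
Top2a: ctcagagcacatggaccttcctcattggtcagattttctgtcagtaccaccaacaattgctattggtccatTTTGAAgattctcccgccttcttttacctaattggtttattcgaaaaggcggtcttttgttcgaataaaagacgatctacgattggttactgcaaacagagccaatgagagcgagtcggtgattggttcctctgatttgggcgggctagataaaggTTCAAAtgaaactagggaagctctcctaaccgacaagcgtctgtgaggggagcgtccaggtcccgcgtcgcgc

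Of 19 linker and core histone genes 5 rose and 1 fell (median 0.38). H2ac10 was at 10.60, 12.80 and 11.14 with IGF1 and at 9.68, 9.74 and 9.74 with vehicle (1.79 ± 0.44), a call lost without IGF1 replicate 2 (adjusted p = 0.0732). The repair-linked H2ax rose by 1.46 ± 0.34, and H1f5 was not called (adjusted p = 0.0974). The faller was the linker histone gene H1f2, at 8.01, 9.26 and 8.54 with IGF1 and 10.70, 10.44 and 11.32 with vehicle (-2.22 ± 0.45, adjusted p = 0.00167). The count of risers was 3 without vehicle replicate 2, 1 without IGF1 replicate 2, 3 without IGF1 replicate 3 and 1 with the fit limited to the groups compared. Histone genes are close in sequence, so probes may be shared.

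Of 16 genes of G1 cyclins, their kinases and inhibitors 2 rose and 1 fell, where 9.28% of all genes rose and 4.35% fell. Cdk4, a kinase of the G1 phase, was at 10.96, 11.22 and 11.27 with IGF1 and 9.36, 10.23 and 10.34 with vehicle (1.17 ± 0.28, adjusted p = 0.00558). The related kinase gene Cdk6 went the other way (-0.81 ± 0.25), a call lost without vehicle replicate 2 or 3, IGF1 replicate 1 or 3 and with centred arrays (adjusted p 0.0657 to 0.124). Rbl1 (0.47) lost its call without each array but vehicle replicate 3 (adjusted p 0.0567 to 0.181).

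**Figure D3:**
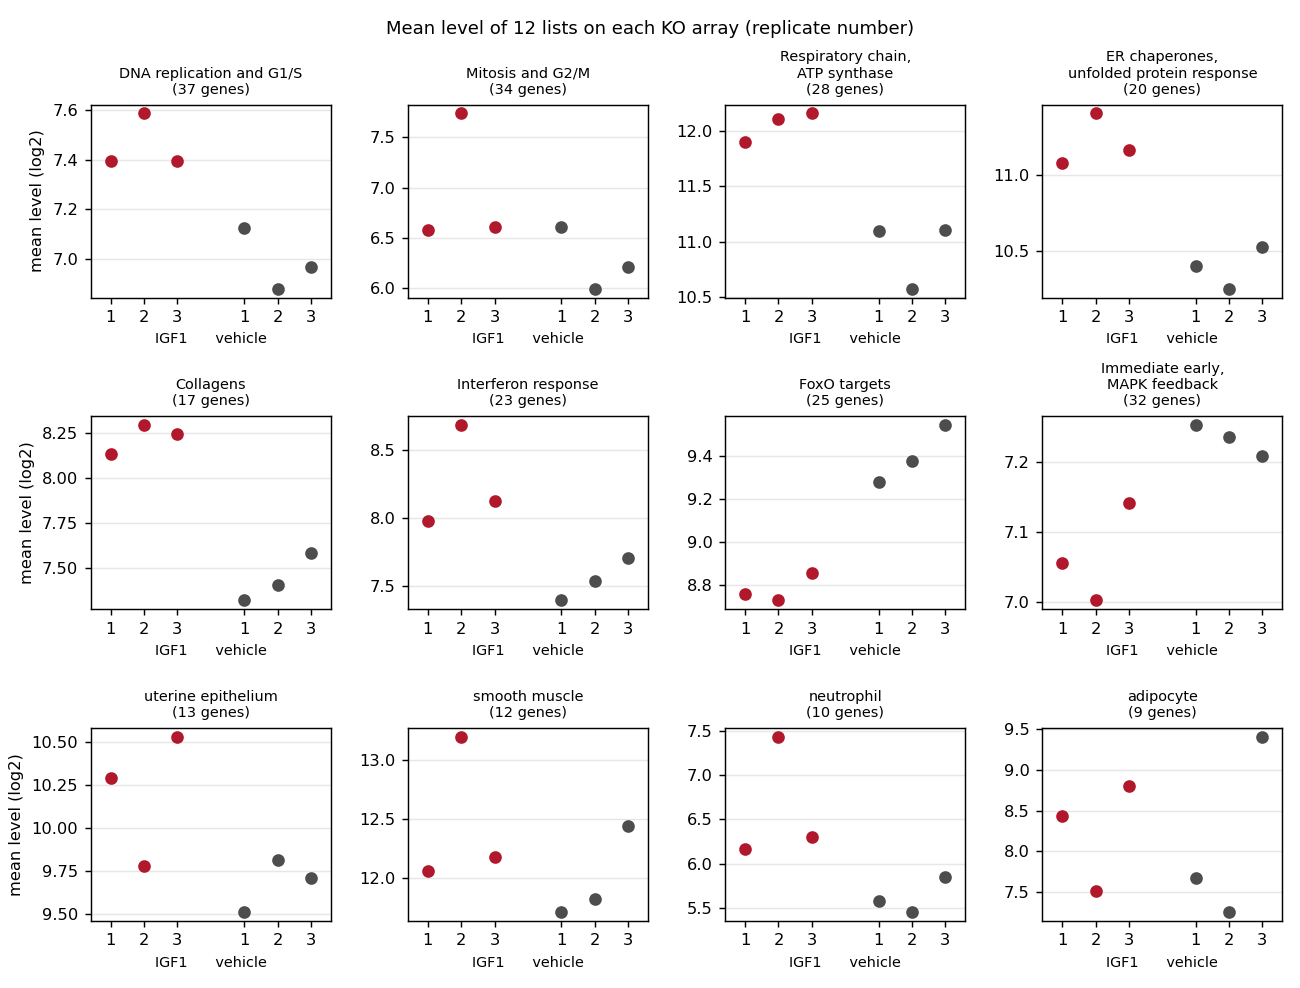
Mean log2 level of 12 lists on each of the 6 KO arrays, in 1 panel per list with its own axis. Red points are the IGF1 24 h replicates and grey points the vehicle replicates, by replicate number. The mitosis list stands at 7.74 on IGF1 replicate 2 and at 6.58 and 6.61 on the other IGF1 arrays, while the respiratory chain list lies between 11.90 and 12.16 on the IGF1 arrays and between 10.57 and 11.10 on the vehicle arrays.

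Most calls among matrix genes were rises. Of 17 collagen genes 10 rose and none fell (median 0.56), and 7 to 11 rose when any of the 6 arrays was left out. Col6a2, a chain of collagen VI, was at 9.52, 9.43 and 9.63 with IGF1 and 7.51, 7.41 and 7.70 with vehicle (1.98 ± 0.24, adjusted p = 3.53e-05). Col1a1 was at 10.002, 10.31 and 10.38 with IGF1 and 8.71, 8.62 and 8.68 with vehicle (1.56 ± 0.22), and Col3a1 rose by 1.85 ± 0.30 and Col6a3 by 1.39 ± 0.31. The collagen chaperone gene Serpinh1 was at 15.36, 16.15 and 15.79 with IGF1 and 13.84, 11.82 and 13.40 with vehicle (2.74 ± 0.43, 6.70-fold).

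Of 31 other matrix proteins, crosslinking and remodelling enzymes 11 rose and 2 fell (median 0.39). Fn1, the fibronectin gene, was at 13.82, 13.26 and 13.94 with IGF1 and 10.66, 11.33 and 11.57 with vehicle (2.49 ± 0.48). The matrix protease gene Mmp2 (1.65), the crosslinking enzyme gene Loxl1 (1.37) and the protease inhibitor gene Timp1 (1.30) rose too. The fallers were Timp3 (-1.45), a matrix-bound protease inhibitor gene, and Dcn, the gene of the collagen-binding proteoglycan decorin. Dcn was at 15.66, 15.33 and 15.83 with IGF1 and at 17.53, 17.70 and 18.19 with vehicle (-2.20 ± 0.30, adjusted p = 8.51e-05). With array weights 4 of the 31 fell.

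Of 23 interferon response genes 7 rose in KO uteri and none fell, with a median of 0.58, and 5 to 7 rose when any of the 6 arrays was left out. Bst2, the gene of the virus-tethering protein tetherin, was at 11.06, 11.62 and 11.65 with IGF1 and 9.16, 9.05 and 9.48 with vehicle (2.21 ± 0.45, adjusted p = 0.0016). Xaf1 was at 11.85, 11.34 and 12.45 with IGF1 and 10.23, 10.50 and 10.32 with vehicle (1.53 ± 0.32), and Oas1a, the gene of an RNA-sensing enzyme, at 8.70, 9.34 and 8.69 with IGF1 and 6.84, 7.55 and 7.86 with vehicle (1.49 ± 0.36). Isg15, a ubiquitin-like modifier gene named after its values were seen, was at 9.90, 10.77 and 10.45 with IGF1 and 9.35, 8.86 and 8.88 with vehicle (1.34 ± 0.31, adjusted p = 0.00424). The groups did not overlap for these 4 genes, nor for 31.4% of all genes. The chemokine gene Cxcl10, at 8.09 on IGF1 replicate 2 and at or under the floor on the vehicle arrays, was not called (adjusted p = 0.237). The list mean was highest on IGF1 replicate 2 (7.97, 8.68 and 8.13 with IGF1, against 7.39, 7.54 and 7.71 with vehicle).

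The interferon-stimulated response element was searched as GAAA, 2 bases of any kind and GAAA on both strands, allowing overlapping copies. It was found in 13 of 19 members with a promoter (68.4%) against 3.99% of all genes with one, and in 5 of the 6 risers with a promoter. Isg15 (chr4:156200769-156201068, minus strand, chromosome 4) has 3 overlapping copies and Bst2 (chr8:71537423-71537722, minus strand, chromosome 8) has 2, in capitals. They are shown as risers named above that hold more than 1 copy.
Isg15: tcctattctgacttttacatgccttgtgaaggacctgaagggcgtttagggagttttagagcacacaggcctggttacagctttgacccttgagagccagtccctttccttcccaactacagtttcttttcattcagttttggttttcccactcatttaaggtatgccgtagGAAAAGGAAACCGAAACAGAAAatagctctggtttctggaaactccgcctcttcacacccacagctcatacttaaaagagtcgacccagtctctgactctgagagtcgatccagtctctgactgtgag
Bst2: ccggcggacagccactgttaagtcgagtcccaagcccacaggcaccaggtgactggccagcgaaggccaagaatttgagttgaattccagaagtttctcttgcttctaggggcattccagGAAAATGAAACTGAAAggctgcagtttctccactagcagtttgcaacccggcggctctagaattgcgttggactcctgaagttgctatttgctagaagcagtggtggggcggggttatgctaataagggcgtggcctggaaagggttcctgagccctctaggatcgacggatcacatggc

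Of 32 genes known to respond to E2 in the uterus 2 rose and none fell (median 0.15), where 9.28% of all genes rose. The 2 were the surface mucin gene Muc1 and Krt8. Muc1 was at 10.58, 11.70 and 10.95 with IGF1 and 9.90, 9.10 and 9.28 with vehicle (1.65 ± 0.42, adjusted p = 0.0101), a call lost without IGF1 replicate 2 (adjusted p = 0.0718) and vehicle replicate 2 (adjusted p = 0.0571). Krt8 lost its call without vehicle replicate 1, IGF1 replicate 1 or IGF1 replicate 3 (adjusted p 0.093 to 0.138) and under quantile normalization (adjusted p = 0.109). Sprr2f, a gene of the epithelial surface that E2 strongly induces, was at 9.65, 15.46 and 9.91 with IGF1 and at 12.42, 6.40 and 7.71 with vehicle. The groups overlapped, and Sprr2f was not called (2.83 ± 1.55, adjusted p = 0.267). Lcn2 (adjusted p = 0.137) and Sprr2b (adjusted p = 0.55) were likewise highest on IGF1 replicate 2 and not called.

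Of 38 Wnt signalling genes 3 rose and 3 fell (median 0.01), where 9.28% of all genes rose and 4.35% fell. The Wnt antagonist gene Sfrp2 was at 10.88, 10.53 and 10.89 with IGF1 and 9.62, 9.43 and 10.02 with vehicle (1.07 ± 0.22, adjusted p = 0.00164). Axin2, a feedback target of the pathway, was at 8.14, 8.09 and 8.13 with IGF1 and 8.50, 9.02 and 8.99 with vehicle (-0.71 ± 0.19), a call lost without vehicle replicate 2 (adjusted p = 0.074) or 3 (adjusted p = 0.0547). The Wnt activator gene Rspo3 (-1.003) and Sfrp4 (1.001) were not called. Rises numbered 1 without vehicle replicate 1, IGF1 replicate 1 or IGF1 replicate 3. Falls numbered 1 without vehicle replicate 3, IGF1 replicate 1 or IGF1 replicate 3 and with centred arrays, and 0 without vehicle replicate 2 (4 at an unadjusted p under 0.05, limma).

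Of 22 glucocorticoid-induced and clock genes 4 rose and 1 fell (median -0.18), where 9.28% of all genes rose and 4.35% fell. The metallothionein genes Mt2 and Mt1, which metals and glucocorticoids induce, rose by 1.82 ± 0.41 and 1.55 ± 0.41. Mt2 was at 17.75, 16.69 and 18.21 with IGF1 and 16.00, 15.71 and 15.50 with vehicle. Mt1 lost its call without vehicle replicate 2 (adjusted p = 0.0746) and IGF1 replicate 3 (adjusted p = 0.0988), and without either array the list had 1 riser. The clock output gene Hlf (-1.17 ± 0.37, adjusted p = 0.0349) lost its call without any array but vehicle replicate 1 (adjusted p 0.0506 to 0.136).

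Calls were few among the remaining lists of cell type markers, and over all genes 9.28% rose and 4.35% fell. None of the 12 T and NK cell, 6 B and plasma cell, 6 eosinophil, 9 adipocyte, 2 erythrocyte, 7 mesothelium and 6 nerve markers was called (limma; among these 0 were higher and 1 lower at an unadjusted p under 0.05). Of these, 6 T and NK cell and 5 B and plasma cell markers lay at or under the floor on all 6 arrays. So did 6 eosinophil, 5 nerve, 1 erythrocyte and 1 mesothelium marker, and the lack of a call for such markers says little. Of 12 macrophage markers Cd68 rose (1.28 ± 0.40), a call lost without each array but IGF1 replicate 1 (adjusted p 0.0532 to 0.17). Endothelium had 3 risers of 11, Plvap (at least 1.47-fold), Emcn (1.04 ± 0.26) and Cdh5 (0.98 ± 0.33), and 1 without vehicle replicate 2. Skeletal muscle had 2 risers of 9, the actin gene Acta1, at 9.52, 9.99 and 9.67 with IGF1 and 7.62, 7.11 and 7.47 with vehicle, and Tnni2 (1.61 ± 0.28). Smooth muscle can express both, and 5 of the 9 skeletal muscle markers lay at or under the floor on all 6 arrays. Ovary markers had 2 fallers of 8, Star and Inha, and 5 of 8 at or under the floor on all 6 arrays. No ovary marker was called without vehicle replicate 1, 2 or 3 or IGF1 replicate 1 or 3 (limma, 2 lower at an unadjusted p under 0.05 in each). The 6 markers of oviduct ciliated cells had 2 risers, Tppp3 and Rsph1, and 1 faller, Pax8, and none of the 6 was called without IGF1 replicate 2 or vehicle replicate 2 (limma, 2 higher and 1 lower at an unadjusted p under 0.05 in each). The adipocyte list mean was 8.44, 7.51 and 8.80 with IGF1 and 7.67, 7.26 and 9.40 with vehicle, and its median change of 0.13 ran from -0.34 without vehicle replicate 2 to 0.86 without vehicle replicate 3. The part of fat cell RNA in the results was not tested.

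The same 3 doses of IGF1 were given to WT mice. In WT 1291 genes were called (4.28%), 1001 higher (3.32%) and 290 lower (0.962%), and 547 without WT vehicle replicate 1. Of the KO calls 896 were also called in WT in the same direction, which is 21.8% of the KO calls and 69.4% of the WT calls. Without WT vehicle replicate 1 the shared calls were 410, 9.98% of the KO calls. The WT change had the same sign for 3846 of the KO calls (93.6%), and without WT vehicle replicate 1 for 3946 (96.1%). The test of the difference itself, the KO change minus the WT change, called 2 genes of 30142 (0.00664%), Hpgds and Gm25346 (limma, 2019 at an unadjusted p under 0.05).

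Hpgds averaged 6.80 ± 0.16 in KO IGF1 and 12.78 ± 0.78 in KO vehicle uteri, and 8.01 ± 0.62 in WT IGF1 and 9.49 ± 0.33 in WT vehicle uteri (SD, n = 3 each). Its fall was larger in KO than in WT by -4.51 ± 0.61 (adjusted p = 0.00394), and by -4.65 without WT vehicle replicate 1 (adjusted p = 0.0108). In vehicle uteri Hpgds was already higher in KO than in WT by 3.29 ± 0.43 (adjusted p = 7.24e-05), or 3.43 without that array, so the KO and WT changes started from different levels. Gm25346, a predicted gene, averaged 4.74 ± 0.13 in KO IGF1 and 6.41 ± 0.32 in KO vehicle uteri, and 5.33 ± 0.34 in WT IGF1 and 5.08 ± 0.19 in WT vehicle uteri. All arrays of KO IGF1, WT IGF1 and WT vehicle and 1 of the 3 KO vehicle arrays lay at or under the floor, so its fitted difference (adjusted p = 0.0402) is no measure of size. That call was lost without WT vehicle replicate 1 (adjusted p = 0.162) and under several other settings.

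For most lists the members called were on the same side in both genotypes, and no member of any of the 19 lists was called for a difference between genotypes. Mitosis genes had 12 risers of 34 in KO and 25 in WT (19 without WT vehicle replicate 1), with medians of 0.69 and 1.22 (1.28 without that array). Replication genes had 15 risers of 37 in KO and 17 in WT (17 without that array). Respiratory chain genes had 23 of 28 in KO and 12 in WT (7 without it), ER chaperones 12 of 20 in KO and 8 in WT (4 without it), and collagens 10 of 17 in KO and 7 in WT (6 without it). These counts come from separate tests, in which 9.28% of all genes rose in KO and 3.32% in WT. Without WT vehicle replicate 1, 413 of the 30142 genes rose in WT, against 1001 with it. WT medians with and without that array were 0.53 and 0.66 for replication and 0.78 and 0.81 for the respiratory chain. They were 0.78 and 0.56 for ER chaperones and 0.58 and 0.58 for collagens. The difference between genotypes passed the test for no member.

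Interferon genes had 7 risers of 23 in KO (median 0.58) and none in WT (median -0.26, and -0.35 without WT vehicle replicate 1). Over all genes 9.28% rose in KO and 3.32% in WT. Oas1a changed by 1.49 in KO and -0.47 in WT (-0.41 without that array), Xaf1 by 1.53 and -0.0035 (-0.15 without it), and Bst2 by 2.21 and 1.05 (0.82 without it). The difference between genotypes was called for no member, with 9 of the 23 at an unadjusted p under 0.05 (limma). FoxO targets had 6 fallers of 25 in KO (median -0.49) and none in WT (median -0.11, and -0.19 without WT vehicle replicate 1). Over all genes 4.35% fell in KO and 0.962% in WT, so a count of none in WT is near the share of all genes. For the difference, 5 of 25 had an unadjusted p under 0.05 (limma). Among single genes, Igfbp5 rose by 3.89 in KO and 4.12 in WT (4.04 without that array), Lgals1 by 3.95 and 2.83 (2.53 without it), and Lepr fell in both (-3.48 and -2.52, or -2.97 without it). Vcan rose by 3.52 in KO and 1.54 in WT (1.47 without it), and the difference of 1.98 was not called (adjusted p = 0.35).

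**Figure D4:**
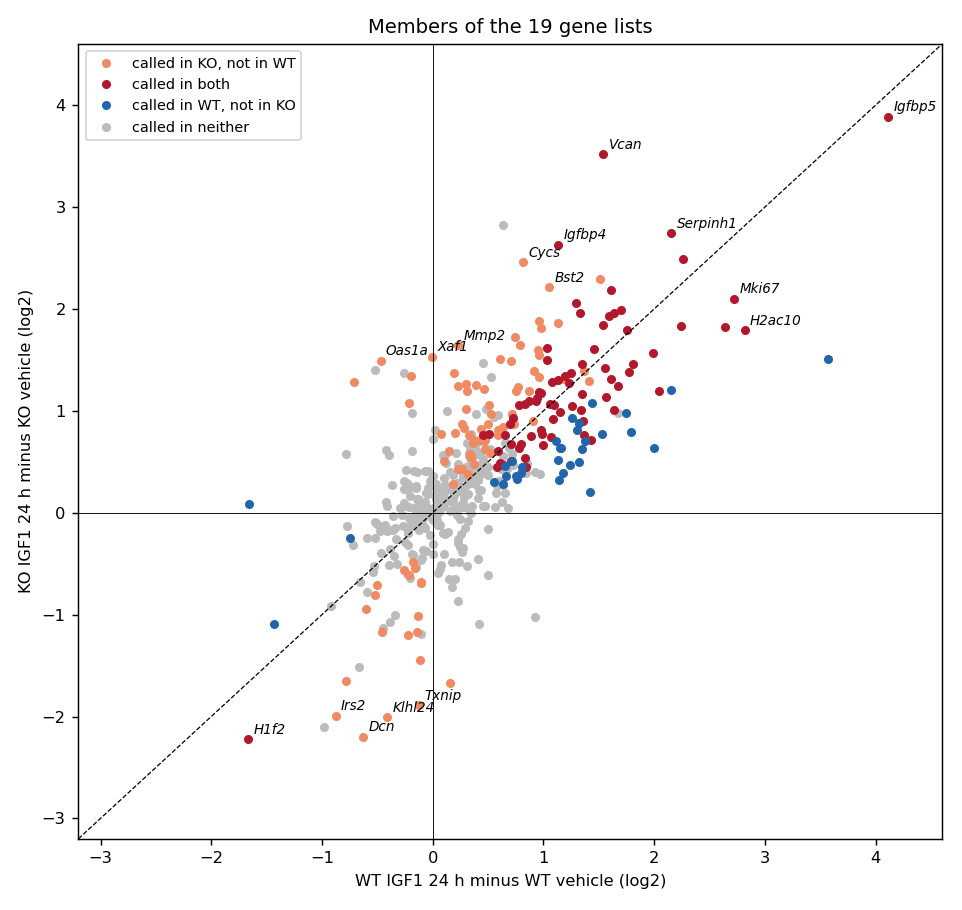
Log2 change with IGF1 at 24 h in KO (vertical axis) against WT (horizontal axis) for the measured members of the 19 lists. Colours give the genotype in which a gene was called, and the dashed line marks equal change. Igfbp5 lies near the line (3.89 in KO, 4.12 in WT), while Vcan (3.52 and 1.54) and Bst2 (2.21 and 1.05) lie above it, and no gene of these lists was called for a difference between genotypes.

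A second set of injected KO uteri was available in the E2 group, sampled at 24 h after 1 injection. KO IGF1 differed from KO E2 in 6468 genes (21.5%), and 3021 of the 4107 main calls (73.6%) were called in the same direction there, a comparison that shares the IGF1 arrays. Against KO vehicle, no gene was called for E2 in KO (0 of 30142 by limma, 3735 at an unadjusted p under 0.05). This does not show that E2 changed no gene. The background floor was 6.21, 6.55 and 6.06 on the KO E2 arrays, against 5.98 to 6.23 on the KO vehicle arrays. Of the 24 genes with the largest rises and falls, 20 differed by under 2-fold between the KO E2 and KO vehicle means and 4 by more. Igfbp5 averaged 14.47 with IGF1, 10.56 with E2 and 10.59 with vehicle, Vcan 12.06, 8.38 and 8.54, and Hpgds 6.80, 12.47 and 12.78. The 4 were S100a8, with 12.05 with IGF1, 8.95 with E2 and 5.86 with vehicle, Mrps36-ps1 (12.99, 11.35 and 10.12), Atp5mpl (16.76, 15.02 and 13.87) and Inmt (7.89, 11.47 and 12.55).

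At 2 h after 1 dose of IGF1, 2150 genes differed from KO vehicle (7.13%, of which 4.19% of genes tested were higher and 2.95% lower), a comparison that shares the vehicle arrays and also holds the difference in sampling time. Immediate early and MAPK feedback genes had 18 risers of 32 at 2 h and 4 fallers at 24 h. Dusp1 averaged 8.34 with vehicle, 9.22 at 2 h and 7.65 at 24 h. Ribosome biogenesis genes had 14 risers of 28 at 2 h and 8 at 24 h, and Ddx21 changed by 2.32 at 2 h and 1.27 at 24 h.

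Other groups were called mainly at 24 h. Respiratory chain genes had 1 riser of 28 at 2 h and 23 at 24 h, collagens 1 riser and 1 faller of 17 at 2 h and 10 risers at 24 h, and mitosis genes 1 faller of 34 at 2 h and 12 risers at 24 h. Igfbp5 changed by 0.94 at 2 h (adjusted p = 0.362) and 3.89 at 24 h. Vcan averaged 8.54 with vehicle, 8.54 at 2 h and 12.06 at 24 h. FoxO targets had 7 fallers and 2 risers of 25 at 2 h and 6 fallers at 24 h. Klhl24 changed by -2.79 at 2 h and -2.01 at 24 h, and Hpgds by -3.16 at 2 h and -5.98 at 24 h.

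**Figure D5:**
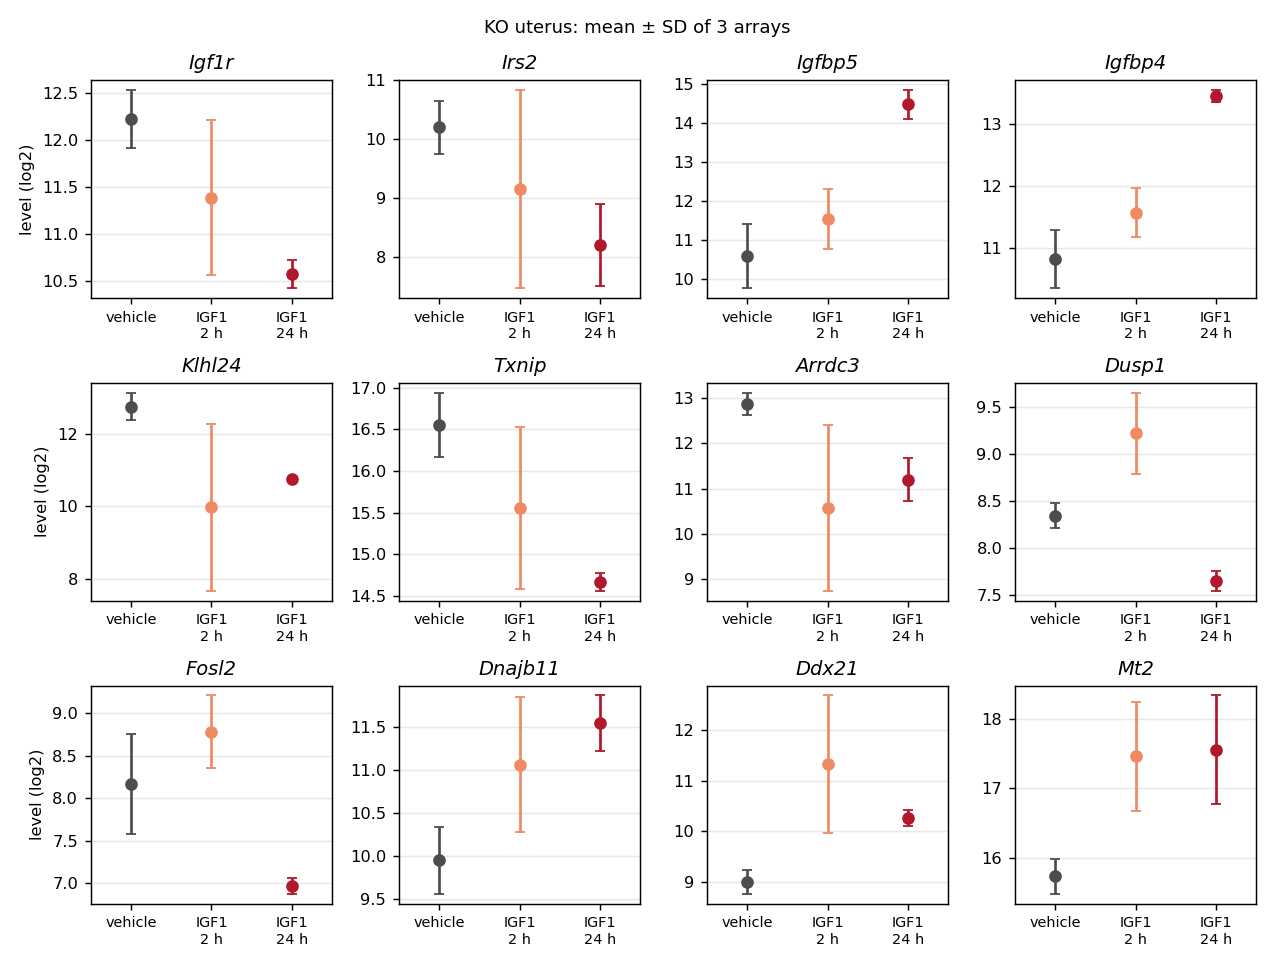
Level of 12 genes in KO uteri given vehicle, IGF1 for 2 h (1 dose) and IGF1 for 24 h (3 doses), as the mean of 3 arrays with bars of 1 SD, each panel on its own log2 axis. Dusp1 is highest at 2 h (9.22) and lowest at 24 h (7.65), while Igfbp5 and Igfbp4 are highest at 24 h.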

How the data were processed

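Uterine RNA (300 ng per sample, extracted with Trizol and a column clean-up) was amplified, labelled with biotin and hybridised to Affymetrix whole-transcript arrays, per the labels' protocols. The authors deposited 1 log2 value for each of 72688 probe sets on 30 arrays, while the sources used here give neither their software nor the background correction and normalization. The values were used as deposited. GEO's platform annotation gave 1 gene symbol for 30604 probe sets, several for 2146 and none for 39938, and 827 symbols were updated through RefSeq names. For the 355 genes with several probe sets the one with the highest mean was used, which left 30142 genes.

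Group means over all 30 arrays were fitted with limma 3.58.1 (R 4.3.3, lmFit and eBayes, prior df 3.66, residual df 20), with Benjamini-Hochberg adjustment over all genes. The fit was tested on simulated data. The comparisons were KO IGF1 24 h against KO vehicle, the same in WT, their difference, and KO IGF1 24 h against KO E2 24 h. Alternatives were array scaling, dim genes left out, the mean of all probe sets, other prior settings, array weights, a replicate block, fewer groups in the fit and each array left out. Leaving out the 2 arrays of highest background together was chosen after seeing the data.

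The text names the 12 largest rises and falls (called, at least 2-fold, no overlap, without predicted genes, microRNAs and other small RNAs, receptor and antibody families), called differences between genotypes, up to 4 members of each list, and 6 genes of the estrogen and IGF pathways. Gm25346, Hspa5, Creld2, Isg15, Bcl2l11, E2f1, the genes of arrays that stood apart, and further members named in the IGF, FoxO, immediate early and matrix lists were added after their values were seen. The members and lists were chosen with earlier results of these data known. Promoters are from RefSeq (GRCm38.p6).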

Additional observations from a re-analysis of the deposited data

Results flagged for a closer look

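Hpgds stood out because its change with IGF1 differed between KO and WT uteri in the test of that difference, by -4.51 (limma, adjusted p = 0.00394). The change was -5.98 in KO and -1.48 in WT (-1.34 without WT vehicle replicate 1). The difference stayed called when any single array was left out, with adjusted p between 0.000928 and 0.0267. Gm25346 stood out for the same reason, with a fitted difference of -1.92 (adjusted p = 0.0402). All arrays of KO IGF1, WT IGF1 and WT vehicle and 1 of the 3 KO vehicle arrays lay at or under the background floor, so this value is no measure of the size of a change.

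Probe sets outside the gene comparison also gave calls between KO IGF1 and KO vehicle uteri. Of 2146 probe sets with several gene symbols 241 were called (11.2%), 125 higher and 116 lower. Of 39907 probe sets without a listed gene 2917 were called (7.31%), 684 higher and 2233 lower. None of 31 control probe sets was called (limma). The genes behind these probe sets are not named here.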

How the results depend on the processing

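The count of calls between KO IGF1 and KO vehicle was 4107 and lay between 2544 and 3591 when each array was left out in turn, with 2434 of the original calls kept without KO vehicle replicate 2. It was 3169 with the fit limited to these groups, 5888 with array weights and 1451 at 2-fold or more. In WT the count of 1291 became 136 with the fit limited to the groups compared, 3946 with array weights, 728 without the 2 arrays of highest background, 554 at 2-fold or more, and 278 to 1343 when each array was left out (547 without WT vehicle replicate 1, 278 without WT IGF1 replicate 1, 429 without WT IGF1 replicate 3). The 2 genes that differed between genotypes became 1 with centred arrays, under quantile normalization, with the replicate block and without the 2 arrays of highest background, 18 with array weights, and 1 to 9 when each array was left out (9 without KO IGF1 replicate 2, 5 without WT vehicle replicate 2). Against KO E2 the count of 6468 became 3288 with the fit limited to the groups compared, 1601 at 2-fold or more, and 3305 to 6423 when each array was left out (3305 without KO E2 replicate 2, 4205 without KO IGF1 replicate 2, 3926 without KO IGF1 replicate 3), and the share higher was 52.7%, against 73.9% with centred arrays. Apart from fewer samples or groups in a fit, the cause was not tested. Esr1 in KO against WT vehicle stayed between -2.42 and -1.82 and called. Same-numbered KO IGF1 and KO vehicle arrays had deviations that correlated at 0.116, -0.10 and 0.134, against -0.189 to 0.0643 for arrays of different number. Same-numbered WT IGF1 and WT vehicle arrays gave 0.190, 0.102 and 0.083, against -0.179 to 0.114. With 3 arrays per group these values cannot decide whether the numbers pair the arrays. With the replicate block 4031 genes were called. Of the named genes Ddx21, Star and the genotype difference of Gm25346 lost their calls. The sign turned for 11 genes that were not called. Pgr turned under quantile normalization (-0.23). Leaving out each array in turn, the log2 change ran from -0.0041 to 0.16 for Esr2, -0.23 to 2.32 for Sprr2b, -0.37 to 0.048 for Cd3d, -0.27 to 0.11 for Ccr3 (0.0087 without KO vehicle replicate 2), -0.52 to 0.047 for Lep, -0.48 to 0.16 for Msln, -0.59 to 0.37 for Lrrn4, -0.21 to 0.005 for Alas2, -0.28 to 1.41 for Cidec (-0.08 without KO vehicle replicate 2, -0.18 without KO IGF1 replicate 3) and -0.15 to 0.0178 for Slc4a1 (0.0135 without KO IGF1 replicate 3). Cidec also turned with array weights (-0.17), and Slc4a1 under quantile normalization (0.0163) and with array weights (0.0075). Genes at or under the floor give no measure of change.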

Other observations

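Classes of genes left out of the naming rule changed in different directions between KO IGF1 and KO vehicle uteri. Of 632 microRNA genes 3 were higher (0.475%) and 64 lower (10.1%), with a median of -0.23. Of 157 other small RNA genes 11 were higher (7.01%) and none lower, with a median of 0.25. Of 9650 predicted genes and clones 746 were higher (7.73%) and 340 lower (3.52%), against 2036 (11.6%) and 888 (5.04%) of 17626 other genes. Of 1735 olfactory and vomeronasal receptor genes, which the uterus is not known to use, none was higher and 16 were lower (0.922%). Probe sets of this kind of array measure the precursor and host transcripts of a microRNA, so these values are not levels of mature microRNAs. The background floor was higher on the vehicle arrays (5.98 to 6.23) than on the IGF1 arrays (5.84 to 5.96). The part of background and of array scaling in the differences between classes was not tested.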
